A study of Equus caballus with 31 samples.

Results

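The genes described here are the nuclear-coded subunits of the mitochondrial respiratory chain and of ATP synthase, measured in horses, in the cells that float in joint (synovial) fluid and in peripheral blood mononuclear cells (PBMC). They were taken by symbol: every gene present in both tables whose name begins as a complex I subunit (NDUFA, NDUFB, NDUFC, NDUFS or NDUFV followed by a digit), is SDHA, SDHB, SDHC or SDHD of complex II, begins with UQCR (complex III), begins with COX4 to COX8 (complex IV) or begins with ATP5 (ATP synthase, complex V). This gave 74 genes of the 16799 symbols shared by both tables, with 32 in complex I, 4 in complex II, 7 in complex III, 15 in complex IV and 16 in complex V. NDUFA4 and its relative NDUFA4L2 were grouped with complex IV, where the NDUFA4 protein is found. COX4I2 was in the fluid table only and NDUFA2 in the blood table only, and both are given separately. Subunits named in another way, such as CYC1 of complex III, and the subunits coded by mitochondrial DNA are outside this set.

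Complexes I and II feed electrons from NADH and from succinate to coenzyme Q, complex III passes them to cytochrome c, and complex IV passes them to oxygen. Complexes I, III and IV pump protons as they do so, and ATP synthase lets the protons back through its membrane ring to make ATP in its catalytic head. Most subunits are made in the cytosol from nuclear genes and imported. Resting T cells draw much of their ATP from this chain, whereas activated T cells and inflammatory macrophages draw more on glycolysis.

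Horses with naturally occurring osteoarthritis (OA) and healthy horses, all labelled wild type (WT), were compared in each tissue. There were 5 OA and 11 healthy libraries of fluid and 6 OA and 9 healthy libraries of PBMC, each from a different animal within its tissue, and 13 horses gave both. Disease status rested on lameness, radiographs and numbing of the affected joint, and animals with recent medication or joint injection had been left out. The labels give no treatment, age, sex, joint or sequencing batch, so none of these entered a test. Fluid cells had been treated with hyaluronidase and pelleted, and both kinds of sample were sequenced as mixed cells after poly(A) selection.

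Values are normalised read counts, scaled by median ratios separately in each tissue, so that no level is compared between fluid and blood or between genes. Depth was 25.91 to 36.32 M reads per library in fluid and 23.91 to 34.75 M in blood, where the OA libraries (31.71 to 34.75 M) were deeper than most healthy ones (23.91 to 32.2 M). T cell and monocyte markers were present in every library. In fluid, 14 of 15 T cell markers were lower in OA, the summed level of the list being 42181 to 159488 in healthy and 9477 to 41523 in OA libraries, with none of the 15 at 0. Of 11 monocyte and macrophage markers tested in fluid, 2 (CD163 and CD36) were higher in OA, with summed levels of 46925 to 226598 in healthy and 34565 to 233470 in OA libraries. Fibroblast and matrix markers, which the label of mixed mononuclear cells does not name, were also present in fluid, with summed levels of 2237 to 207300 in healthy and 21442 to 943117 in OA libraries, 4 of 13 (FN1, COL6A3, COL5A1 and PDPN) being higher in OA and none at 0. Of the other lists in fluid, 1 of 9 B cell markers (CD79A) and 1 of 14 proliferation genes (MCM2) were lower and 0 of 4 neutrophil markers passed. Over all genes tested in fluid, 14.4% were higher and 13.6% lower. The monocyte, B cell and proliferation counts thus lie near or below the shares of all genes. The part of these markers in the results below was not tested beyond the covariate fits given with them.

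In synovial fluid, subunit genes of each complex from I to V were higher in OA, and no subunit gene was called lower. The 2 calls in complex II were close to the threshold and were lost in several alternative fits. Of the 72 subunits with a mean level of at least 10, 42 were higher in OA by limma at an adjusted p below 0.05 and 0 were lower, whereas 14.4% of all 13885 genes tested were higher and 13.6% lower. All 72 had a positive change on the log2(value + 1) scale (67 of them when libraries were scaled to equal totals, 58 with the ribosomal protein mean as a covariate and 71 with the T cell or the monocyte mean), from 0.11 (NDUFS1) to 4.56 (NDUFA4L2), with a median of 0.63, which is a fold of 1.55, against a median of 0.08 over all genes tested. This scale understates the change of low genes. NDUFA4L2, counted among the 72 and the 42, passed the filter on low values only through its OA libraries, so its call adds no support. Of the 72, 3 (NDUFB10, UQCRC2 and UQCRB) had every OA library above every healthy library, where 1.57% of all genes tested did and 1.99% had every OA library below. In RNA from mixed cells such as these, fewer cells of a type and less RNA per cell cannot be told apart.

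The count of 42 depended on what else was in the fit. It was 26 when libraries were scaled to equal totals, a scaling that moved the median of all genes to -0.12, the median of the subunits to 0.43, and the share of all genes called to 9.45% higher and 19.9% lower. With the monocyte and macrophage marker mean as a covariate it was 26, while the median of the subunits was 0.66 and 9.06% of all genes were called higher and 7.62% lower. With the fibroblast and matrix mean it was 10, with a median of 0.64 and shares of 3.17% and 4.77%. With the T cell mean it was 0, with a median of 0.84, in a fit that called no gene of the whole table. With the ribosomal protein mean, added after seeing the data, it was 1 (NDUFB10), with a median of 0.25 and shares of 2.26% and 4.48%.

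**Figure D1:**
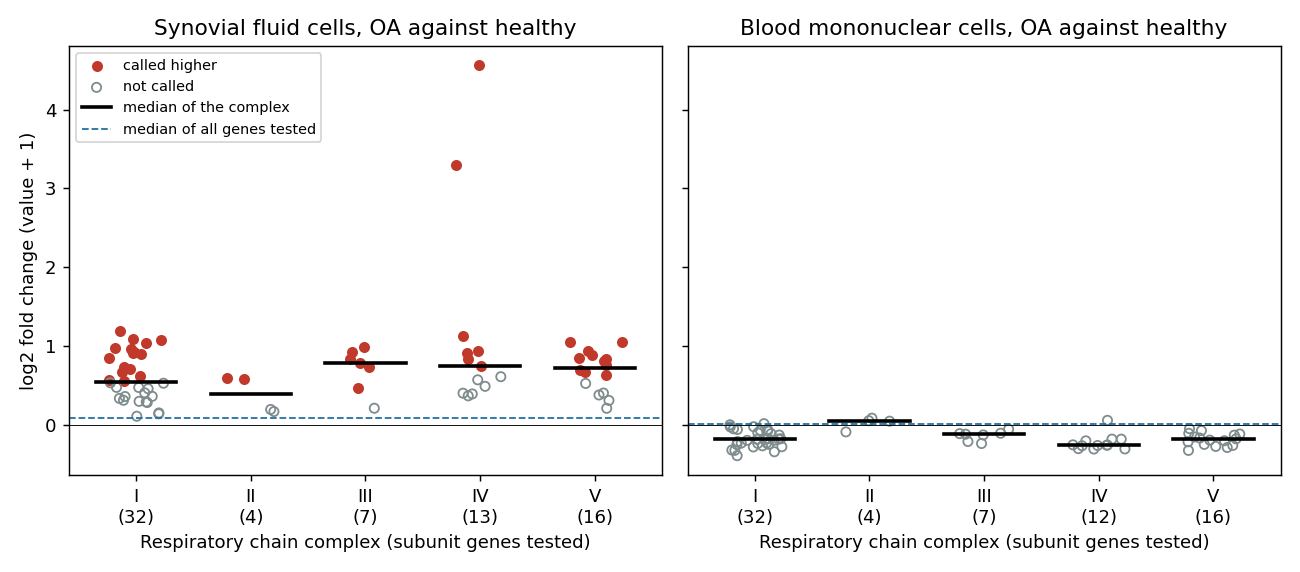
Log2 change of each subunit gene, OA compared with healthy as log2(value + 1), by complex in fluid and in blood. Each point is 1 gene, and filled points passed the limma test at an adjusted p below 0.05. All 72 fluid values lie above 0 (67 with libraries scaled to equal totals and 58 with the ribosomal protein covariate), while 6 of 71 blood values do (47 with that covariate) and none passed.

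Complex I has a membrane arm, which pumps protons, and a peripheral arm, which holds the NADH site and the iron-sulfur clusters, and genes of both were higher in OA. Of the 17 membrane arm genes, 11 were higher in OA fluid (median change 0.70), and of the 15 peripheral arm genes 5 were (median 0.41). Of the 7 nuclear-coded core subunits, which carry the cofactors, 1 was higher (NDUFS8; median 0.30), compared with 15 of the 25 accessory subunits, which surround and stabilise the core (median 0.62). Among all genes tested in fluid 14.4% were higher, and the core count lies near that share. The difference between arms or between core and accessory genes was not itself tested. Of the 16 calls in complex I, 7 were left without OA_1038 and 9 without OA_9350.

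NDUFB10, an accessory subunit of the membrane arm needed for assembly of complex I (ENSECAG00000020610, EquCab3.0 chromosome 13, 42041445 to 42044027), had 3354 normalised counts in OA_1038, 1915 in OA_2615, 2024 in OA_3850, 3219 in OA_9350 and 1437 in OA_9570, and 708 to 1385 (median 959) in the 11 healthy fluids. Every OA library was above every healthy one, although OA_9570 only just. The mean rose from 1013 ± 225 (SD, n = 11) to 2389.7 ± 849 (SD, n = 5), a change of 1.19 log2 units (SE 0.21; limma adjusted p = 0.00128), the smallest adjusted p of the set.

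NDUFS4, a late-assembling accessory subunit of the peripheral arm whose loss causes Leigh syndrome in humans (chromosome 21, 19051851 to 19151401), had 1368 counts in OA_1038, 1024 in OA_2615, 999.6 in OA_3850, 1062 in OA_9350 and 1258 in OA_9570, and 398 to 1066 (median 565) in healthy fluids. The groups met only at ORC_198, the highest healthy library. Its log2 change was 0.98 (SE 0.22, limma adjusted p = 0.00473). NDUFS8, a core subunit that carries iron-sulfur clusters, had 4528, 3257, 3408, 5511 and 4430.3 counts in OA_1038, OA_2615, OA_3850, OA_9350 and OA_9570, against 1453 to 3853 (median 1967) in healthy fluids. The healthy ORC_198 and ORC_208 reached into the OA range. The log2 change of NDUFS8 was 0.92 (SE 0.22, adjusted p = 0.00774).

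NDUFB5, a membrane arm accessory subunit, had 1728 counts in OA_1038, 1471 in OA_2615, 885 in OA_3850, 1782 in OA_9350 and 868 in OA_9570, and 399 to 961 (median 599) in healthy fluids. Of its 5 OA values, 3 were above all healthy libraries and 2 were within their range. The log2 change was 1.08 (SE 0.25, adjusted p = 0.00586). NDUFS5, a membrane arm subunit despite its name, had a log2 change of 1.04 (adjusted p = 0.00814) and was highest in OA_9350 at 3960.3, with 1391 to 2117 in the other OA libraries and 711 to 1776 in healthy ones.

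NDUFS1, the largest core subunit, stood at the other end of complex I. It had 3087 counts in OA_1038, 2832 in OA_2615, 3260.5 in OA_3850, 3072 in OA_9350 and 3409 in OA_9570, and 2504 to 4045 (median 2853) in healthy fluids. The OA libraries lay wholly inside the healthy range. The log2 change was 0.11 with a 95% interval of -0.16 to 0.38 (limma adjusted p = 0.531), which leaves out a change the size of that of NDUFB10. The core subunit NDUFS3 (0.15) did not pass the test either.

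**Figure D2:**
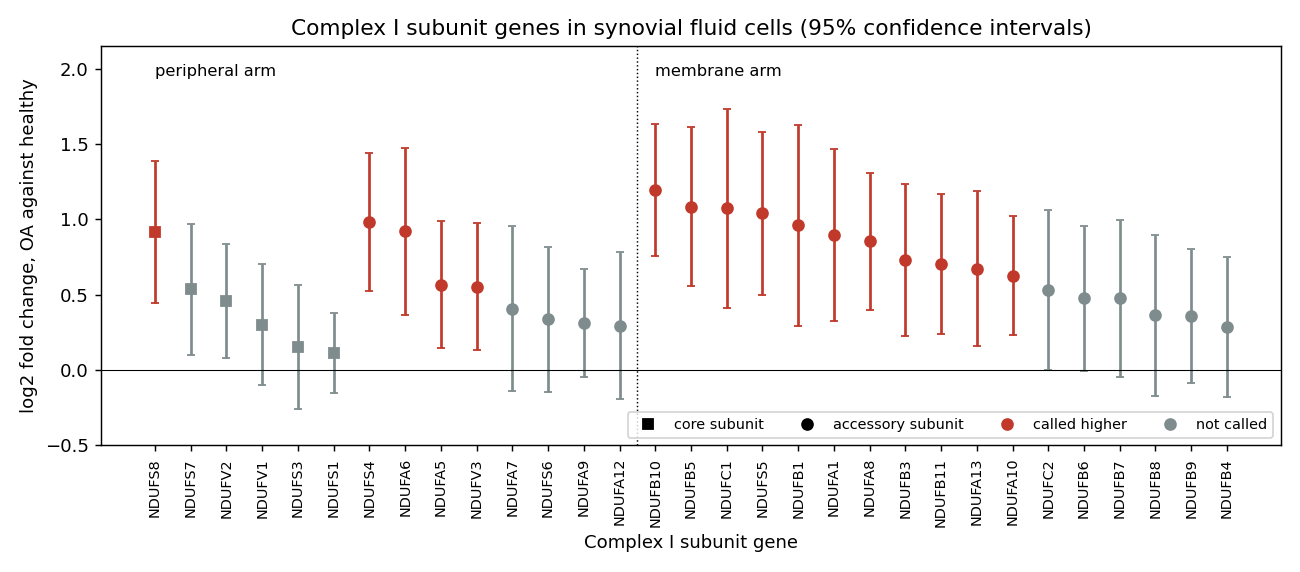
Log2 change of complex I genes in fluid with its 95% interval, OA compared with healthy as log2(value + 1), split by peripheral and membrane arm. Squares are core and circles accessory subunits, and red symbols passed the limma test at an adjusted p below 0.05. NDUFS1 (0.11) and NDUFS3 (0.15) lie near 0 and NDUFB10 (1.19) is highest.

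Complex II is the only complex whose subunits are all nuclear, and it is also an enzyme of the citric acid cycle. Of its 4 genes 2 were higher in OA fluid, SDHC and SDHD, the membrane anchor subunits that bind heme and coenzyme Q. SDHA and SDHB, the flavin and iron-sulfur subunits of the catalytic dimer, did not pass the test. The difference between anchor and dimer was not itself tested. SDHC had 7148, 7158, 4693, 6355 and 6369 counts in OA_1038, OA_2615, OA_3850, OA_9350 and OA_9570, and 2481 to 6949.9 (median 3924) in healthy fluids. Its groups overlapped over much of their range, and its log2 change was 0.59 (SE 0.21, limma adjusted p = 0.0433). SDHD had 2567, 1508, 1410.5, 1341 and 1480.3 counts in the same libraries, and 672 to 1488 (median 1077) in healthy ones. All OA values of SDHD were above the healthy median, with OA_1038 far above the rest, and its log2 change was 0.59 (SE 0.21, adjusted p = 0.0426).

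Both anchor calls were close to the threshold: SDHC lost it in 12 and SDHD in 9 of the 16 fits that each left out 1 fluid library, with log2 changes from 0.51 to 0.69 and from 0.42 to 0.66. Both also lost it with edgeR on the reads, without the filter on low values, with equal totals and with TMM scaling. Both lost it too with the T cell, fibroblast or ribosomal covariate, and SDHC also with the monocyte covariate or weights per library. SDHA, which oxidises succinate (chromosome 21, 58852954 to 58880935), had 6059 counts in OA_1038, 5276 in OA_2615, 5358 in OA_3850, 5129.7 in OA_9350 and 9027 in OA_9570, and 4122 to 7053 (median 5190.1) in healthy fluids. Apart from OA_9570 its OA values were inside the healthy range. The log2 change of SDHA was 0.17 (95% interval -0.19 to 0.53, adjusted p = 0.472), and that of SDHB 0.20 (-0.16 to 0.55, adjusted p = 0.395), also highest in OA_9570.

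In complex III, 6 of 7 genes were higher in OA fluid, with a median change of 0.79. Without OA_9350 the count was 2 (UQCRC2 and UQCRB) and without OA_1038 it was 3. UQCRC2, a core protein of the matrix side of complex III (chromosome 13, 27403862 to 27426737), had 3241 counts in OA_1038, 2933 in OA_2615, 3218 in OA_3850, 3193 in OA_9350 and 3175 in OA_9570, and 1469 to 2607 (median 1824) in healthy fluids. The 5 OA libraries lay close together and above all 11 healthy ones. The mean rose from 1938 ± 408 (SD, n = 11) to 3152 ± 125 (SD, n = 5), a change of 0.73 log2 units (SE 0.16; limma adjusted p = 0.00369).

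UQCRB, a small subunit near the coenzyme Q site (chromosome 9, 44281301 to 44286615), had 2293, 1937, 2222, 2283 and 1793 counts in OA_1038, OA_2615, OA_3850, OA_9350 and OA_9570, and 864 to 1779.7 (median 1112) in healthy fluids. The groups did not overlap, although OA_9570 and the healthy ORC_208 nearly met. Its log2 change was 0.83 (SE 0.18, adjusted p = 0.00391). The other small subunits UQCRQ (0.79), UQCR11 (0.92) and UQCR10 (0.98) and the Rieske iron-sulfur protein UQCRFS1 (0.46, adjusted p = 0.0321) were higher too. UQCRC1, the partner of UQCRC2 in the core, did not pass, with 5314 to 8175 counts in OA and 4288 to 7425 in healthy fluids and a log2 change of 0.21 (95% interval -0.11 to 0.53, adjusted p = 0.311). CYC1, the cytochrome c1 heme subunit, which is outside the set, had a log2 change of 0.29 (adjusted p = 0.195). The call of UQCRFS1 was lost without OA_2615, OA_3850, OA_9350, OA_9570 or ORC_192, and those of UQCR10, UQCR11 and UQCRQ without OA_1038 or OA_9350, that of UQCR11 also without OA_3850 or ORC_192.

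In complex IV, 7 of 13 tested genes were higher in OA fluid, 5 of them among the 10 widely expressed subunits. The count was 3 without OA_1038 and 4 without OA_9350. COX7B, a small subunit needed for complex IV assembly (X chromosome, 60876520 to 60880520), had 3861 counts in OA_1038, 2617 in OA_2615, 2271 in OA_3850, 6713 in OA_9350 and 2308 in OA_9570, and 888 to 2572 (median 1504) in healthy fluids. OA_9350 and OA_1038 were well above the healthy range and OA_3850 and OA_9570 inside its upper end. The mean rose from 1541 ± 477 (SD, n = 11) to 3554 ± 1881 (SD, n = 5), a change of 1.13 log2 units (SE 0.26; limma adjusted p = 0.00519).

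COX7A2 (0.94, adjusted p = 0.00623), COX6C (0.91), COX6B1, which joins the dimer on the cytochrome c side (0.84), and NDUFA4 (0.75) were also higher. The calls of COX6C and NDUFA4 were lost without OA_1038 or OA_9350, and that of NDUFA4 also without OA_2615. COX4I1, the regulatory subunit that binds ATP, and COX8A did not pass, with log2 changes of 0.37 (95% interval -0.08 to 0.81) and 0.40 (-0.09 to 0.90). COX7A2L, which links complexes III and IV into supercomplexes, had a log2 change of 0.39 (adjusted p = 0.17). The highest healthy value of each of COX7B, COX7A2, COX6B1, COX6C, COX4I1, COX8A and NDUFA4 was that of ORC_198.

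Complex IV also held the largest changes of the set, in isoforms that many cell types lack. NDUFA4L2, a hypoxia-induced relative of NDUFA4, had 527 counts in OA_1038, 634 in OA_2615, 1253 in OA_3850, 16.1 in OA_9350 and 0 in OA_9570, and 0 to 41.0 (median 2.42) in healthy fluids. High values were thus in 3 of 5 OA horses, and the other two lay inside the healthy range. The log2 change was 4.56 (SE 1.43, limma adjusted p = 0.0254). The gene passed the filter on low values through its OA libraries alone, which favours a call. Its call therefore adds no support to the 42 subunits and the 7 complex IV genes among which it is counted. COX7A1, the heart and muscle isoform of COX7A2, had 1561, 183, 327, 594 and 109 counts in OA_1038, OA_2615, OA_3850, OA_9350 and OA_9570, and 0 to 209.7 (median 46.6) in healthy fluids. OA_2615 and OA_9570 were inside the healthy range, and the log2 change was 3.29 (SE 1.04, adjusted p = 0.0257).

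Both isoform calls were lost without OA_1038 or OA_3850, that of NDUFA4L2 also without OA_2615 and that of COX7A1 also without OA_9350, with NDUFA4L2 moving between 3.62 (without OA_3850) and 6.20 (without OA_9570) and COX7A1 between 2.77 (without OA_1038) and 3.72 (without OA_9570). Both calls were lost too with the T cell or the ribosomal mean as a covariate, and that of NDUFA4L2 also with the monocyte mean. With the mean of the 13 fibroblast and matrix genes as a covariate both were lost, as were all other complex IV calls. That marker mean was lowest among the OA fluids in OA_9570 (6.01, against a median of 12.97 in OA and 5.20 to 11.5 in healthy libraries), the OA library with no NDUFA4L2 reads. The marker mean was 12.2 in OA_9350, where NDUFA4L2 was at 16.1. It was highest in OA_2615 (14.2), where COX7A1 was at 183. The part of the marker mean in the isoform levels was not tested further. The remaining restricted isoforms were near 0: COX6A2, the muscle form of COX6A1, had 0 reads in all 5 OA fluids and at most 37 in a healthy one, and COX6B2, the testis form of COX6B1, at most 2 and 11. COX4I2, the lung and hypoxia isoform of COX4I1, listed in the fluid table only, had 30 reads in OA_1038, 18 in OA_3850 and 0 in the other 14 fluid libraries.

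**Figure D3:**
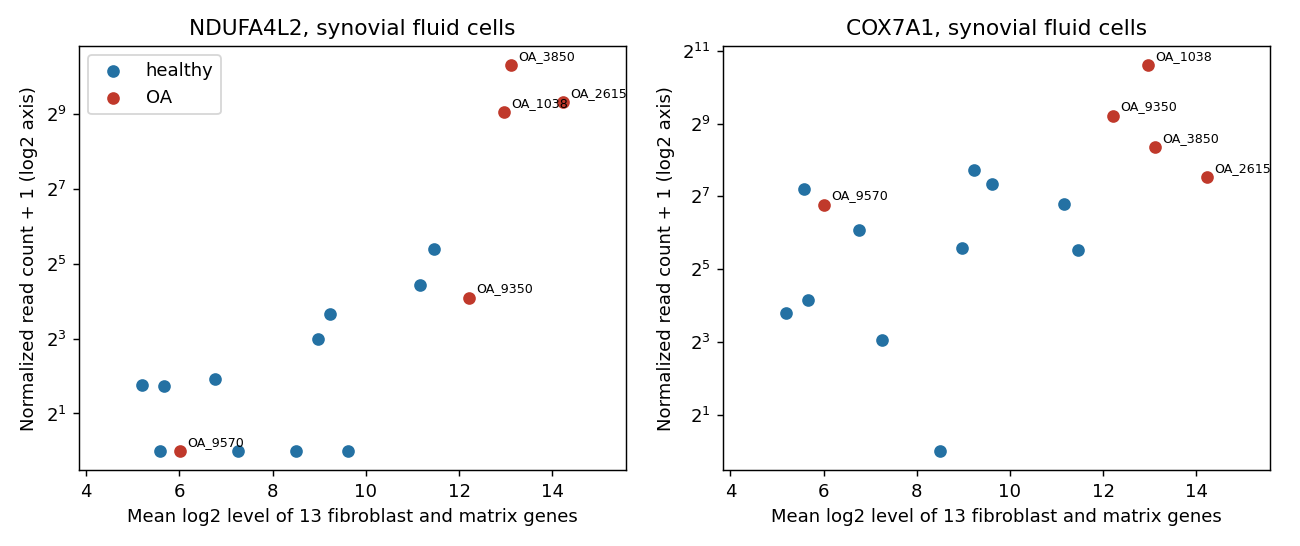
Normalised counts of NDUFA4L2 and COX7A1 (log2(value + 1)) in each fluid library against the mean log2 level of 13 fibroblast and matrix genes in the same library. Each point is 1 library, coloured by group. NDUFA4L2 is at 527 to 1253 in 3 OA libraries and at 41.0 or less in all healthy ones.

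In ATP synthase, 11 of 16 genes were higher in OA fluid (median change 0.72). All 4 genes of the peripheral stalk, which holds the head still against the turning rotor, were higher in OA fluid (median change 0.79), as were all 3 small membrane subunits (median 0.85). Of the 5 genes of the F1 head 3 were higher and of the 3 genes of the c-ring 1, and differences between these parts were not themselves tested. Without OA_1038 the count of 11 was 6, the calls of ATP5PO of the stalk, of ATP5MJ and ATP5MK among the small membrane subunits and of ATP5F1D and ATP5F1E being lost, and without OA_9350 it was 7, the same calls except that of ATP5MJ being lost. ATP5PD, a stalk subunit (chromosome 11, 6830903 to 6833780), had 3644 counts in OA_1038, 2839.5 in OA_2615, 2551 in OA_3850, 3669 in OA_9350 and 2341 in OA_9570, and 1209 to 2630.0 (median 1506) in healthy fluids. ORC_198 alone reached into the OA range. The log2 change was 0.88 (SE 0.19, limma adjusted p = 0.00398).

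ATP5PF, also of the stalk, changed by 1.05 (adjusted p = 0.00544) and ATP5PB by 0.67 (adjusted p = 0.0138), and the small membrane subunit ATP5MF changed by 1.05 (adjusted p = 0.00694). ATP5F1C, ATP5F1D and ATP5F1E, the subunits of the central stalk of the head, were higher by 0.64, 0.84 and 0.94. ATP5F1A, the alpha subunit of the head, had 27689, 19796, 18868, 18170.1 and 20941 counts in OA_1038, OA_2615, OA_3850, OA_9350 and OA_9570, and 14853 to 24096 (median 17478) in healthy fluids. Except for OA_1038 its OA values were inside the healthy range. ATP5F1A had a log2 change of 0.21 (95% interval -0.13 to 0.55, adjusted p = 0.335) and ATP5F1B, the beta subunit that makes ATP, had one of 0.31 (adjusted p = 0.105). Of the c-ring genes, which code for the same mature protein, ATP5MC1 was higher (0.81, adjusted p = 0.0149) and ATP5MC2 (0.53) and ATP5MC3 (0.38) did not pass. ATP5IF1, the inhibitor of ATP hydrolysis, had 372 to 1058 counts in OA and 279 to 988 in healthy fluids and did not pass (0.40, adjusted p = 0.311).

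**Figure D4:**
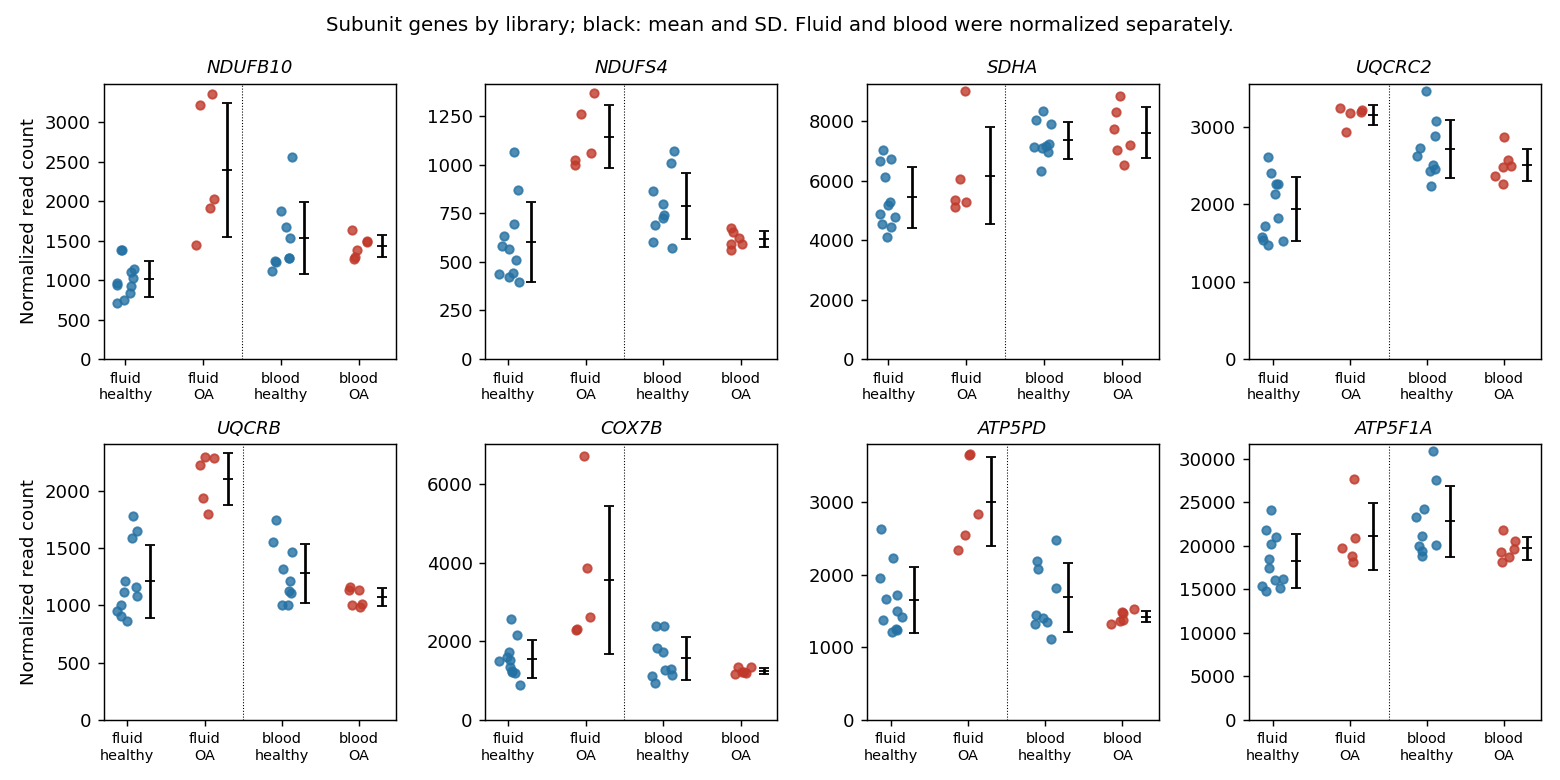
Normalised counts of 8 subunit genes in every library of the 4 groups, with group means and SD. Fluid and blood were normalised separately and are not to be compared in level. NDUFB10, UQCRC2 and UQCRB show no overlap between OA and healthy fluid, whereas in blood the groups overlap for all 8 genes.

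The fluid libraries differed among themselves in the level of the whole set. Taking for each library the median over the subunits of the log2 difference from the healthy mean, OA_1038 stood at 0.99, OA_9350 at 0.97, OA_9570 at 0.50, and OA_2615 and OA_3850 at 0.39. The healthy libraries ran from -0.45 (ORC_196) to 0.74 (ORC_198), with ORC_208 at 0.50 and ORC_202 at 0.25. Thus 2 OA libraries lay above all healthy ones and 3 lay within the range of the healthy libraries. The subunits took 0.701% to 0.916% of all reads in OA and 0.494% to 0.865% in healthy fluids.

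Those 2 libraries also carried many of the calls: without OA_1038 the number of subunits called in fluid was 19, without OA_9350 it was 23, and without the healthy ORC_198 it was 49. The median change of the subunits was 0.58, 0.62 and 0.69 in these fits. Cytosolic ribosomal protein genes of the large subunit moved in the same libraries. Their mean log2 level was 15.4 in OA_1038 and 15.0 in OA_9350, against 13.9 to 14.1 in the other OA and 13.3 to 14.4 in the healthy fluids, and 18 of 30 were higher in OA (median change 0.81). Whether their level reflects library composition or regulation shared with the subunits was not tested. Their part in the subunit result was not tested beyond the covariate fit above. Within groups the subunits moved together, with a median Pearson correlation between pairs of subunits, across libraries, of 0.71 over the 11 healthy and 0.56 over the 5 OA fluids, values that share the libraries' composition and depth and are given as a description.

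**Figure D5:**
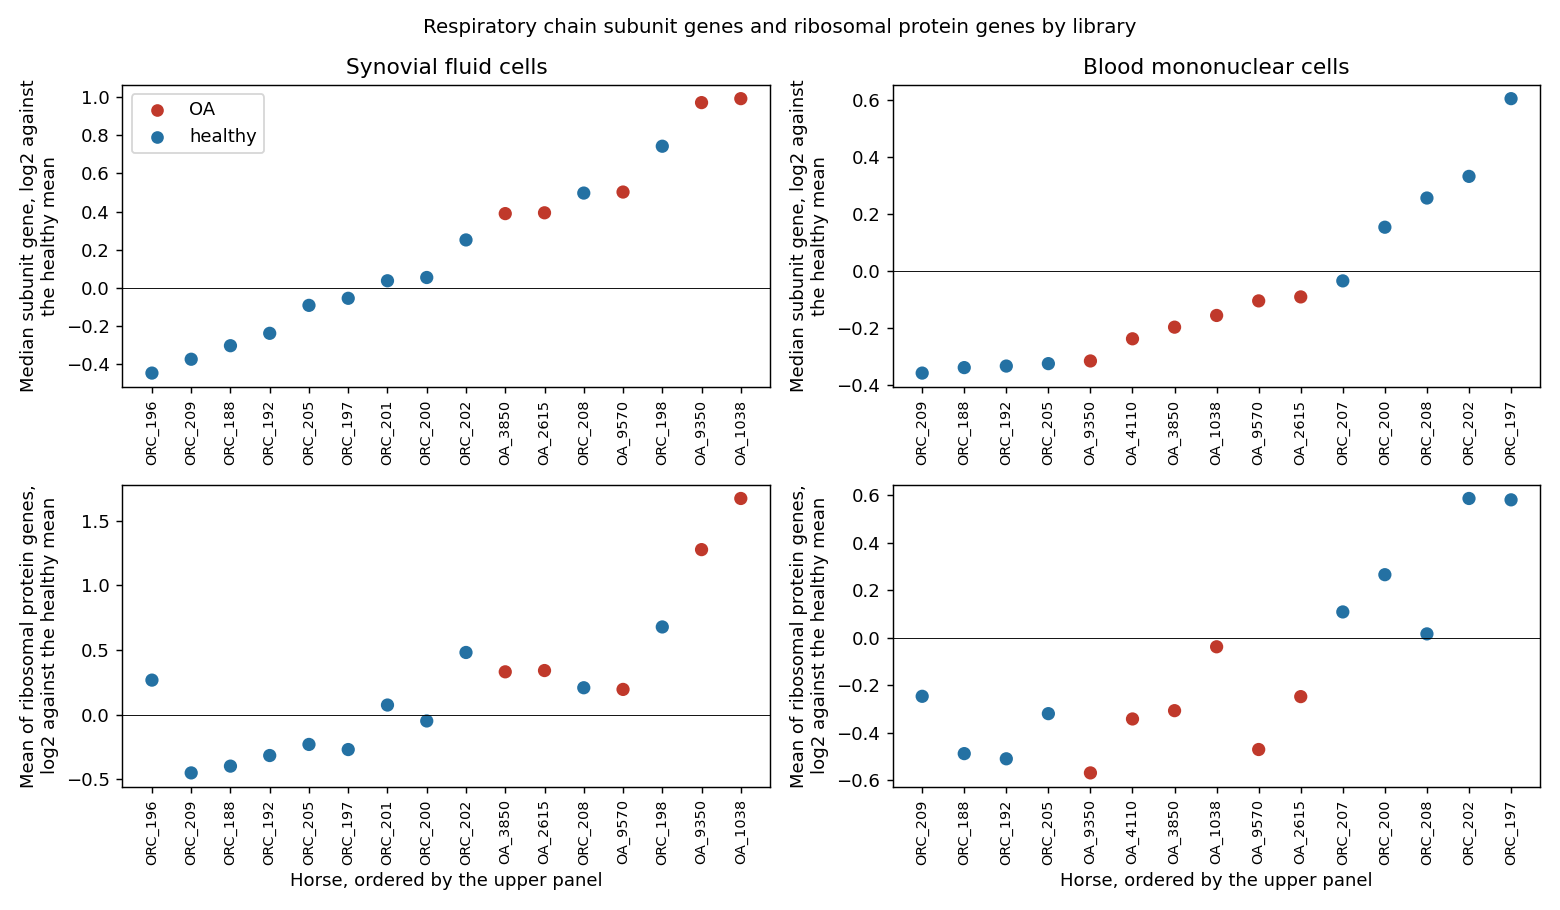
For each library in fluid and in blood, the median log2 difference of the subunit genes from the healthy mean and the mean log2 level of the ribosomal protein genes. OA_1038 and OA_9350 are highest in fluid at 0.99 and 0.97, and the healthy ORC_197 is highest in blood at 0.61.

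Other genes of mitochondrial respiration were followed by lists, whose counts stand against the 14.4% of all genes that were higher and the 13.6% that were lower. In fluid, 9 of 18 genes of the citric acid cycle and pyruvate dehydrogenase were higher in OA and 0 lower (median 0.38), among them SUCLA2, a subunit of succinyl-CoA synthetase (0.75, adjusted p = 0.00859), DLAT of pyruvate dehydrogenase (0.80) and SUCLG1 (0.60). Of 14 genes of cytochrome c and of coenzyme Q synthesis 4 were higher and 0 lower (median 0.35), including COQ7, a coenzyme Q hydroxylase (0.88, adjusted p = 0.00196), the coenzyme Q binding protein COQ10A (2.02) and cytochrome c itself, CYCS (0.78), and COQ9 (0.70). Of 52 assembly factors 11 were higher, which is 21.2%, and 2 lower (median 0.21), a share of higher calls not far from that of all genes. COA3, an early complex IV factor, changed by 0.98, the complex I factor NDUFAF8 by 1.16 and the complex III factor UQCC2 by 1.34, whereas the copper-related factor COX19 (-0.59) and the ATP synthase factor ATPAF1 (-0.48) were lower.

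Of the 18 regulators of mitochondrial DNA and biogenesis tested in fluid, 0 were higher and 2 lower (median -0.17), a share of lower calls no larger than the 13.6% of all genes. These were NRF1, a transcription factor of many respiratory genes, from 982 to 606 (log2 change -0.73, limma adjusted p = 0.0141), and GABPB1, a subunit of the transcription factor GABP (-0.60, adjusted p = 0.0246). Of 15 genes through which oxygen acts on respiration, 5 were higher and 0 lower (median 0.41): LDHA, which makes lactate from pyruvate (1.29, adjusted p = 0.00277), the mitophagy gene BNIP3 (1.60), the oxygen-sensitive factor HIF1A (0.87), the pyruvate dehydrogenase kinase PDK3 (0.59) and CHCHD2, a regulator of COX4I2 (0.65).

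In blood, no subunit passed the test in either direction. Of 71 subunits tested by limma 0 were higher and 0 lower in OA, where 5.40% of all 13072 genes were called (3.20% higher and 2.20% lower), and 3 subunits had an unadjusted p below 0.05. Neither edgeR nor DESeq2 on the reads called any. The changes ran from -0.39 (NDUFB11) to 0.09 (SDHB), with 6 above 0 and a median of -0.18 against 0.02 over all genes tested. The sign of the median depended on the fit: with the ribosomal protein covariate it was 0.06, with 47 of 71 above 0, with weights per library -0.05, with 25 above 0, and with the monocyte covariate -0.33, with 0 above 0. None of these fits called a subunit. Leaving out COX7A1, whose counts were very low, the 95% intervals of the 70 other genes ran from -0.78 at the lowest to 0.41 at the highest. No subunit had separated groups, where 0.612% of all genes had OA above and 0.436% OA below all healthy libraries.

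NDUFS4, with the smallest adjusted p in blood, had 561 to 675 counts (median 608) in the 6 OA and 573 to 1067 (median 739.8) in the 9 healthy PBMC libraries. Only OA_2615 (561) lay below the healthy range. The other OA values were inside its lower part, and all were under the healthy median. The mean was 616 ± 42.1 (SD, n = 6) in OA and 785 ± 169 (SD, n = 9) in healthy blood, a change of -0.32 log2 units (SE 0.13; limma adjusted p = 0.144). NDUFB11, a membrane arm subunit, had 900.0 to 1239 counts (median 1085) in OA and 1038.5 to 2526 (median 1259) in healthy libraries, a log2 change of -0.39 (95% interval -0.78 to 0.00, adjusted p = 0.198).

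By complex, the median change in blood was -0.18 for complex I, 0.05 for complex II, -0.12 for complex III, -0.26 for complex IV and -0.19 for complex V. In complex II, SDHA (0.05), SDHB (0.09) and SDHD (0.05) had changes slightly above 0 and SDHC one of -0.09. SDHA had 6548 to 8855 counts (median 7469.7) in OA and 6336 to 8348 (median 7158) in healthy blood, so the groups overlapped almost wholly. UQCRB, separated in fluid, had 987 to 1164 counts (median 1072) in OA and 1002 to 1742 (median 1216) in healthy blood (log2 change -0.24, adjusted p = 0.241). The log2 changes of COX6A1 and COX7A2L were -0.31 each and that of ATP5MF was -0.32, and none of these passed.

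The isoforms that were high in some OA fluids were near the floor in blood. NDUFA4L2 had at most 2 reads in an OA and 3 in a healthy PBMC library and was not tested. COX7A1 had 6.57 to 14.9 normalised counts in OA and 2.91 to 78.0 in healthy blood, with the highest value in ORC_202 (log2 change 0.06, SE 0.59, adjusted p = 0.96). NDUFA2, listed in the blood table only, had 2 reads in ORC_208 and 0 in the other 14 libraries.

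Healthy blood varied more in these genes than OA blood. The median SD of a subunit on the log2 scale was 0.42 over the 9 healthy and 0.15 over the 6 OA libraries, compared with 0.37 and 0.27 over all genes tested, and this difference in spread was not tested. By library, the median subunit stood at -0.32 to -0.09 in OA, whereas the healthy libraries ran from -0.36 (ORC_209) to 0.33 (ORC_202) and 0.61 (ORC_197). The ribosomal protein means of those 2 healthy libraries, 15.0 in ORC_197 and 15.1 in ORC_202, were also the highest in blood, where the list had 0 of 30 genes called and a median change of -0.36. Without ORC_197 and ORC_202 together, an alternative chosen after seeing the data, no subunit was called either, the median change was -0.05 and 27 of 71 were above 0.

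Markers of other cells were followed in blood too. Their counts and those of the companion lists below stand against the 3.20% of all genes called higher and the 2.20% called lower. In lists this small, 1 call does not show that the list moved. In OA blood 1 of 10 monocyte markers tested was higher (median change of the list 1.04), with summed levels of 53207 to 132721 in healthy and 96872 to 233883 in OA libraries, 0 of 15 T cell markers passed, and 7 of 14 proliferation genes were lower, with summed levels of 13420.3 to 35331 in healthy and 9009 to 16377 in OA libraries. Also in blood, 1 of 9 B cell markers was lower (BLK), 1 of 4 neutrophil markers higher (S100A12) and 1 of 3 fibroblast and matrix genes higher (FN1, which monocytes also make), with COL1A1, DCN and LUM at 0 in every OA library. The part of these markers in the subunit levels was not tested beyond the T cell and monocyte covariate fits. Those fits called few genes of any kind, 0.841% of all genes higher and 0.566% lower with the T cell mean and 0 genes with the monocyte mean, so that their lack of subunit calls says little about the subunits. Of the companion lists in blood, 2 of 52 assembly factors were lower (ATPAF2 -0.48 and UQCC2 -0.44), 1 of 18 citric acid cycle genes was lower (PDHB -0.35), 2 of 15 oxygen-linked genes were higher (EGLN3 0.82 and PDK1 0.72), and 0 of 14 cytochrome c and coenzyme Q genes and 0 of 18 biogenesis regulators passed.

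The OA effect on the subunits was then compared between the tissues, in a fit over all 31 libraries of the change in fluid minus the change in blood. Of 71 subunits 40 had a larger change in fluid and 0 a smaller one, whereas over all 12733 genes tested 10.3% were called higher and 11.9% lower. The difference was positive for all 71 (67 when libraries were scaled to equal totals, with 28 called), from 0.11 to 3.24 with a median of 0.83, against -0.05 over all genes. By complex the calls were 15 of 32 in complex I, 1 of 4 in complex II, 6 of 7 in complex III, 7 of 12 in complex IV and 11 of 16 in complex V. Of the 40 genes, 36 were also among the 42 called in fluid alone, which is 90% of the 40 and 85.7% of the 42, and both tests use the same fluid libraries.

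The genes with the smallest adjusted p of the difference came from complexes I, III, IV and V. NDUFS4 had a log2 change of 0.98 in fluid and of -0.32 in blood, a difference of 1.30 (SE 0.26, limma adjusted p = 0.00124). UQCRB had a difference of 1.07 (SE 0.22, adjusted p = 0.00186), UQCRC2 of 0.84 (SE 0.18, adjusted p = 0.00224) and NDUFB10 of 1.25 (SE 0.28, adjusted p = 0.00291). ATP5PD (1.09, adjusted p = 0.00596) and COX7B (1.38, adjusted p = 0.0061) followed.

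At the other end, the catalytic dimer of complex II and NDUFS1 had differences near 0. SDHA had a difference of 0.12 (95% interval -0.24 to 0.48), SDHB of 0.11 (-0.33 to 0.55) and NDUFS1 of 0.11 (-0.22 to 0.44). With the replicate block, that is, on the fluid minus blood difference within each of the 13 horses that gave both samples, 55 subunits were called, all larger in fluid and including all 40, where 24.2% of all genes were called. Without the fluid library of OA_9350 the count of 40 was 19, and without that of OA_1038 it was 22. No cell marker or ribosomal covariate entered the fits of the difference, so their effect on its calls was not tested.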

How the data were processed

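RNA was sequenced from synovial fluid cells (5 OA and 11 healthy horses) and PBMC (6 and 9), per the labels. Each deposited table, 1 per tissue, holds a signal: the authors' gene counts after median-ratio scaling. Partek, cutadapt, STAR 2.7.3, HTSeq and DESeq and the build EquCab3.0 are named in the submitters' processing notes; roles, settings and the handling of reads shared with pseudogenes, which are common for these genes, are not given in the sources used. Coordinates are those of the blood table, the only table with positions. The subunits coded by mitochondrial DNA were not analysed here. No column of per-sample values was left unused.

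Low values are whole multiples of 1 read: below 1000 reads, 100% of values came out whole within 0.1 of a read in every library, which gave back reads and depth (25.91 to 36.32 M in fluid, 23.91 to 34.75 M in blood). Libraries of 1 group were never near copies (smallest chi-square per gene 35.9). The labels name each horse, so replicates are separate animals.

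Genes with a table mean of at least 10 were fitted per tissue with limma 3.58.1 in R 4.3.3 on log2(value + 1), with trend and robust variance, OA against healthy, two-sided, with Benjamini-Hochberg adjustment over all genes at 0.05. Adjusted p-values in the text come from limma unless another tool is named. The difference between tissues came from 1 fit of 4 means to all 31 libraries, weighted per tissue, and again from within-horse differences (the replicate block). Both samples of a horse carry its number in the titles, and their deviations from the group means correlated positively in 13 of 13 horses (0.123 to 0.391). edgeR 4.0.16 and DESeq2 1.42.0 on the recovered reads, other pseudocounts, filters and scalings, marker means as covariates and leaving out libraries were alternatives.

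The subunits and all gene lists were chosen with earlier results of these data known. The named genes were, per tissue and complex, up to 5 of smallest adjusted p below 0.05 and those of largest and smallest change, the SDH genes, the isoform partners and ATP5IF1, 6 genes for the difference, and up to 3 genes of each companion list per tissue. Other subunits named in passing, and CYC1, were added after their values were seen. A few genes are not reported singly here, while the tests and counts kept them. Of the 35 ribosomal protein symbols 30 were tested.

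On simulated data, 29% of genes changed 2-fold and 70% of those changed 4-fold were recovered in fluid (13822 genes, 7 false calls), 77% and 96% in blood (13078 genes, 8 false calls), 29% and 75% for the difference (12695 genes, 6 false calls) and 14% and 60% with the replicate block (12695 genes, 3 false calls). The simulated fluid and blood samples of a horse were drawn independently. The rates for the replicate block therefore leave out the pairing seen in the data. Only 100 genes were changed at each fold, whereas 28.1% of all genes were called in the fluid data. The simulated rates are therefore not those of the subunits.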

Additional observations from a re-analysis of the deposited data

Results flagged for a closer look

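In each group of 4 to 10 libraries the highest or lowest value was compared with its nearest neighbour, and 11 of 98 groups of values held a value set apart. The cutoffs flag about 1 in 20 groups of independent, normally distributed values. Most values here are untransformed counts of genes that move together, so that rate is only a guide. The healthy fluids, 11 libraries, were outside this size range and were not checked, so every flagged fluid value is from OA. The fluid of OA_9570 was set apart, and highest among OA fluids, for both catalytic subunits of complex II, SDHA (9027 normalised counts, next highest 6059) and SDHB (5283, next 3784). OA_1038 was set apart for the anchor subunit SDHD (2567, next 1508) and for COX8A (20599, next 11299), and OA_9350 for NDUFS5 (3960.3, next 2117) and ATP5MF (3326, next 1719). UQCRC2 was lowest in OA_2615 at 2933, next to 3175, in a group with a narrow range. COX6B2 had a value above 0 in OA_3850 alone among OA fluids, at 2.12 normalised counts. In healthy blood, UQCRC1 was set apart in ORC_197 (9333, next 7256) and COX7A1 in ORC_202 (78.0, next 32.2), and in OA blood the median of the complex III genes was lowest in OA_9350, at -0.30 log2 from the healthy mean, next to -0.12.

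The OA change differed between fluid and blood by a test of the difference itself for NDUFS4 (1.30), UQCRB (1.07), UQCRC2 (0.84), NDUFB10 (1.25), ATP5PD (1.09) and COX7B (1.38), on the log2 scale and larger in fluid. COX4I2, outside the comparisons because it is listed for fluid only, had 30 reads in OA_1038 and 18 in OA_3850, and 0 in every healthy fluid.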

How the results depend on the processing

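The count of 42 subunits higher in OA fluid stayed within 1.5-fold, at 32 to 44, under other pseudocounts, no filter, TMM scaling, edgeR, DESeq2, weights per library and without OA_9570 and ORC_202. It was 26 with equal totals (subunit median 0.43), 26 with the monocyte covariate (0.66), 10 with the fibroblast covariate (0.64), 1 with the ribosomal covariate (0.25) and 0 with the T cell covariate (0.84), against a median of 0.63 in the fit as reported. Over all genes, 9.45% were called higher and 19.9% lower, 9.06% and 7.62%, 3.17% and 4.77%, 2.26% and 4.48%, and none, in the same order. The cause of these moves was not tested. Leaving out each library in turn gave 19 to 49 in fluid and 19 to 45 of 71 for the difference. The difference otherwise had 28 to 55 calls, the 55 with the replicate block, which kept all 40 and changed no call of the 6 genes named for it. The covariates that lowered the fluid count were not tried for the difference. No subunit was lower in fluid, and none was called in blood, in any fit.

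No gene that passed the test reversed in these fits. Over all subunits tested in fluid, 5 of 72 reversed with equal totals, 14 with the ribosomal and 1 each with the T cell and monocyte covariates. In blood 43 of 71 reversed with the ribosomal covariate, 23 without ORC_197 and ORC_202, 19 with weights per library, 6 with the monocyte and 5 with the T cell covariate, 2 each with edgeR and DESeq2 and 1 each with a pseudocount of 8 and TMM scaling. Of the genes chosen by the naming rule, those that reversed in fluid were NDUFS1 (-0.093), SDHA (-0.033) and SDHB (-0.0070) with equal totals, SDHB with the T cell (-0.14) and monocyte (-0.0049) covariates, and COX4I1 (-0.037), COX8A (-0.14), COX7A2L (-0.074), ATP5F1A (-0.0024) and ATP5IF1 (-0.091) with the ribosomal covariate. In blood, COX7A1 became -0.076 with a pseudocount of 8, -0.64 with edgeR, -0.65 with DESeq2, -0.14 with the T cell and -1.09 with the monocyte covariate, and NDUFB5 became -0.023 with edgeR, -0.023 with DESeq2 and -0.038 with the monocyte covariate. SDHA and SDHB became -0.027 and -0.011 with the T cell covariate and, with SDHD (-0.067), -0.083 and -0.14 with the monocyte covariate. With the ribosomal covariate ATP5F1D became 0.23, COX4I1 0.16, UQCRC1 0.085, SDHC 0.081, COX7A2 0.079, COX8A 0.071, NDUFA4 0.058 and COX6B1 0.020. With weights per library ATP5F1D became 0.12, SDHC 0.069 and UQCRC1 0.012, and without ORC_197 and ORC_202 ATP5F1D became 0.10, SDHC 0.035, UQCRC1 0.023 and COX4I1 0.019. Over the fits without 1 library each, blood NDUFB5 ran from -0.075 to 0.091, SDHD from -0.0026 to 0.12, UQCRC1 from -0.094 to 0.011, ATP5F1D from -0.15 to 0.071 and COX7A1 from -0.14 to 0.41.

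With 5 OA fluids, 29% of 2-fold changes were recovered in simulated data with few changed genes, so that rate is only a guide. A subunit that missed the threshold is not shown to be unchanged. OA blood libraries were mostly the deeper ones, and the part of depth was not tested. No batch was given, so a batch that follows disease cannot be told apart from it.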
